A study of Homo sapiens with 3 samples.

Results

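The RAS-ERK feedback genes are 10 genes that sit at the head of the RAS-ERK signalling cascade or are switched on at its end. They are HRAS, the phosphatase genes DUSP4, DUSP5 and DUSP6, the Sprouty genes SPRY2 and SPRY4, SPRED2, PHLDA1, and the ETS factor genes ETV4 and ETV5. They were chosen by symbol, matched to Ensembl gene IDs, and all 10 of 10 were found among the 56632 gene IDs of the deposited tables. Every member reached at least 1 CPM (a read count scaled to library depth) in each library, so no member was lost to a filter on low values. RNA was sequenced from MCF10Ca1h, a breast cancer line of the human MCF10 series, in 3 libraries, 1 per group. PADI4 converts arginine to citrulline in proteins, histones among them. The groups were cells given the PADI4 inhibitor GSK484 for 72 h (GSK484), a culture that received a control compound over the same 72 h (CON) and cells with no treatment (NT). All 3 groups share the same line, medium and horse serum, and the labels give no dose, and no time for NT. The treatment text of the labels names the control compound GSK107 while its deposited table is named for GSK106, so it is called the control compound here.

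MCF10Ca1h descends from cells into which a mutant, activated HRAS was introduced, so HRAS transcripts here can come from the introduced and the endogenous copies, which gene-level counts do not separate. RAS proteins are GTP-bound switches that recruit RAF kinases, which phosphorylate MEK, which phosphorylates ERK. Active ERK induces genes that damp the same cascade. DUSP phosphatases remove the phosphates from ERK or its relatives, and Sprouty and SPRED proteins act between the receptor, RAS and RAF. The PEA3 group ETS factors ETV4 and ETV5 carry ERK signals to further target genes, and the repressor CIC holds several of these genes down until ERK signalling relieves it. In epithelial and tumour cells the RNA of such genes is widely read as a measure of ERK output.

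There were no replicates, so no test between groups was possible and each difference is one between single libraries. Total expected counts were 77220120 under GSK484, 92980847 under CON and 70555229 in NT. Intervals given beside log2 folds are exact 95% binomial intervals for counting error only. They do not cover differences between cultures, and sequenced copies of 1 molecule are not independent. Levels compared between genes are in TPM, a transcript abundance corrected for length, and differences between libraries use CPM scaled with TMM factors. The epithelial markers fixed for the check were all present, with a sum of 11564 TPM under GSK484, 10425 under CON and 11031 in NT. CDKN2A, which the MCF10 series lacks, had no read in any library, where a count of 0 (a limit of 3 counts per library) allows up to 0.039 CPM under GSK484, 0.033 under CON and 0.042 in NT. Of 6 fibroblast markers 1 was above 1 CPM, COL1A1, at 2.85 TPM under GSK484, 1.95 under CON and 1.75 in NT, while COL3A1, DCN and LUM were at 0 in all 3. Of 4 endothelial markers PECAM1 was not analysed here, and only CDH5 passed 1 CPM, with a list sum of 0.32 TPM under GSK484, 0.58 under CON and 0.35 in NT. The leukocyte gene PTPRC and the T cell gene CD3E were at 0 in all 3. The myeloid genes ITGAM and LYZ stayed at 0.68 TPM or less and 0.12 TPM or less. In bulk RNA, fewer cells with a transcript and less transcript per cell cannot be told apart.

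Promoter sequence of the members is shown because ETS factors and CIC, which act on such genes, read short DNA words there. RefSeq entries (build GRCh38.p14, 250 bases before to 50 after the annotated start) were used for 6 members, HRAS, DUSP6, SPRY2, SPRY4, SPRED2 and PHLDA1. They comprise 9 entries, since SPRY2 and SPRED2 have more than one annotated start. No entry was available for DUSP5, ETV4 and ETV5, and the DUSP4 promoter is not reported here. Both strands were searched for the ETS core CCGGAA, the AP-1 site TGANTCA and the CIC pattern TNAATGNA. Of 35116 promoters, 17.2% held the ETS core, 7.71% the AP-1 site and 11.1% the CIC pattern. The sequences below belong to a phosphatase gene with the CIC pattern and to 2 genes with the ETS core, with the matches in capitals. DUSP6 is at chr12:89352452-89352751, PHLDA1 at chr12:76031727-76032026 and SPRY2 at chr13:80341077-80341376, all on the minus strand and written 5′ to 3′ along the gene.
DUSP6: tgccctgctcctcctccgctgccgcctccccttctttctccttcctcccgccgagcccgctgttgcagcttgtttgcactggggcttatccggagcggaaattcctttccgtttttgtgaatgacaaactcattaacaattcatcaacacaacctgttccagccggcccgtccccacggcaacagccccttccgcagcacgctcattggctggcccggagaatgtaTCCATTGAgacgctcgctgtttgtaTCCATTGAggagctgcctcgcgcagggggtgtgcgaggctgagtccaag
PHLDA1: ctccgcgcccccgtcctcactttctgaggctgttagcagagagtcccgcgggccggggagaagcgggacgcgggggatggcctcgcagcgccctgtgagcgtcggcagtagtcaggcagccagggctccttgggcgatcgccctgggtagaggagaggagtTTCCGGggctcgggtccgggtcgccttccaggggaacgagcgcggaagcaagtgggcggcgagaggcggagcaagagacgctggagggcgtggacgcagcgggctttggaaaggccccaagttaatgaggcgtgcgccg
SPRY2: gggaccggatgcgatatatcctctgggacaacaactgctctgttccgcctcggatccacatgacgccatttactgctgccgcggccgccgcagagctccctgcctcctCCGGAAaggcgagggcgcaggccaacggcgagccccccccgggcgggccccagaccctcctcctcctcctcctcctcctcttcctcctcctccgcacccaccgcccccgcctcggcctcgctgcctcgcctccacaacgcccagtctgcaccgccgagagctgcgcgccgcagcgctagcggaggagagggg

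In DUSP6 the same 8 letters occurred at 2 places, in both as the CIC pattern read on the opposite strand. The first began 24 bases before the annotated start and the second within the first transcribed bases. The ETS core began 89 bases before the start in PHLDA1, on the opposite strand, and 142 bases before it in this SPRY2 entry. HRAS also held an ETS core, 133 bases before its start, and 1 of the SPRED2 entries held 2 AP-1 words. No match was found in the SPRY4 entry, which says only that these letters are not in this window. These matches are descriptions of sequence and no binding was measured.

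HRAS, the RAS family GTPase gene whose activated form the line carries, was by far the highest member. Its level was 819 TPM under GSK484, 799 TPM under CON and 767 TPM in NT, which placed it 180th, 182nd and 186th among all genes in the same order of libraries. The relative NRAS, by contrast, stood at 12.1 TPM under GSK484, 9.42 TPM under CON and 14.1 TPM in NT. By TPM, HRAS was 67.6 times NRAS under GSK484, 84.8 times under CON and 54.5 times in NT. In expected counts HRAS had 32657 reads under GSK484, 41385 under CON and 28209 in NT.

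**Figure D1:**
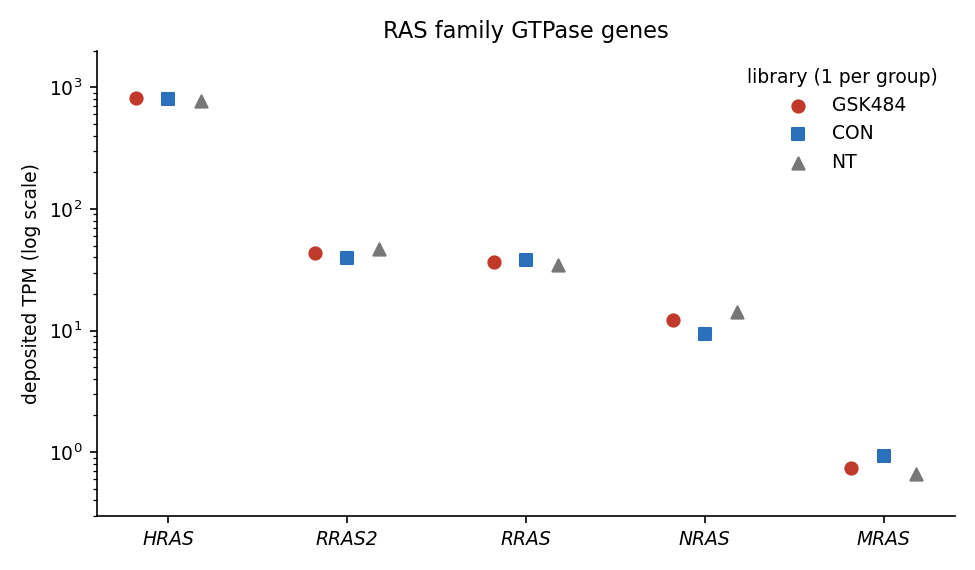
Deposited TPM (log axis) of 5 RAS family GTPase genes in the GSK484, CON and NT libraries, 1 point per library. HRAS lies between 767 and 819 TPM in all 3 libraries, far above NRAS at 9.42 to 14.1 TPM.

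Scaled to library size, HRAS was at 419 CPM under GSK484, 454 CPM under CON and 396 CPM in NT, so CON was the highest of the 3 libraries. The difference of GSK484 from CON was -7.58% by this measure (log2 fold -0.11, interval -0.13 to -0.09). Against NT the GSK484 library was higher by 0.08 on the log2 scale (interval 0.06 to 0.11). CON was above NT by 0.20 (interval 0.18 to 0.22), the highest fold of any member in that comparison by scaled CPM. By TPM the order differed, with GSK484 the highest, and the log2 fold against CON was 0.04. TPM moved the median fold of all genes to 0.10 for GSK484 over CON and to -0.08 for CON over NT, and HRAS lay below the first of these. HRAS is a GC-rich gene (65.8% GC in its longest annotated transcript), and CON and NT differed along GC content. For CON over NT the median log2 fold was 0.14 in the highest sixth of genes by GC content and -0.29 in the lowest. With a smooth trend on GC content and length removed (the composition trend), HRAS stood at -0.13 for CON over NT, -0.14 for GSK484 over NT and -0.01 for GSK484 over CON. HRAS was thus above NT by scaled CPM and TPM and below it with the trend removed.

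The ratio of HRAS to NRAS reads within a library does not depend on library scaling. HRAS had 9.47 reads per NRAS read under GSK484, 12.2 under CON and 7.74 in NT. The log2 change of this ratio was -0.37 for GSK484 over CON (interval -0.44 to -0.30) and 0.29 for GSK484 over NT (interval 0.22 to 0.36). It does depend on composition: with the composition trend of both genes removed it was -0.044 for GSK484 over CON (interval -0.12 to 0.028), within counting error, and -0.12 for GSK484 over NT, with the sign turned. NRAS was 0.25 higher in GSK484 than in CON on the log2 scale, but 0.04 with the composition trend removed. RRAS and RRAS2 (the second chosen after its values were seen), which encode related GTPases, were at 36.9 and 43.0 TPM under GSK484, 38.1 and 39.6 TPM under CON and 34.3 and 46.7 TPM in NT. MRAS stayed below 1 TPM in every library, and was 0.49 lower in GSK484 than in CON (interval -0.79 to -0.19).

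DUSP4, DUSP5 and DUSP6 encode phosphatases that remove phosphates from ERK, DUSP4 and DUSP5 in the nucleus and DUSP6 in the cytoplasm. DUSP4 had the largest fold of the set for GSK484 over CON. It had 15984 expected counts under GSK484, 22641 under CON and 16050 in NT, or 205 CPM under GSK484, 248 CPM under CON and 225 CPM in NT. The GSK484 library was the lowest and the CON library the highest. The difference of GSK484 was -17.3% from CON (log2 fold -0.27, interval -0.30 to -0.25) and -8.86% from NT (log2 fold -0.13, interval -0.17 to -0.10). CON was above NT by 0.14 (interval 0.11 to 0.17). Among 8663 genes of at least 10 CPM in every library, 9.56% had a larger absolute fold than DUSP4 for GSK484 over CON, and the 5th percentile of all these folds was -0.22. The difference from CON kept its direction under all 9 alternative ways of processing, between -0.31 and -0.16. Some of these only change which genes enter and cannot move a gene's own fold.

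DUSP6, the cytoplasmic ERK phosphatase gene, varied little in CPM, at 133 CPM under GSK484, 135 CPM under CON and 138 CPM in NT. Its log2 fold for GSK484 over CON was -0.02 (interval -0.06 to 0.02), within counting error. Its lower CPM in GSK484 than in NT (-0.05, interval -0.09 to -0.01) was -0.01 with the composition trend removed. DUSP5 was likewise within counting error in all 3 comparisons, at 29.4 CPM under GSK484, 30.3 CPM under CON and 28.9 CPM in NT. The phosphatase genes thus differed among themselves. There were 1.54 DUSP4 reads per DUSP6 read under GSK484, 1.84 under CON and 1.64 in NT, a log2 change of -0.25 for GSK484 over CON (interval -0.30 to -0.21) that does not depend on library scaling.

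By length-corrected level the phosphatase genes ranked differently from their read counts. DUSP6 was at 58.9 TPM under GSK484, 55.3 TPM under CON and 62.9 TPM in NT. By TPM it varied the most of the 10 members (highest over lowest 1.14, against 1.03 by CPM), with a log2 fold of -0.19 for CON over NT. The measures thus disagree on how steady it was, but TPM also moved genes in general. For CON over NT the median of all genes was -0.08 by TPM and 0.03 by scaled CPM, and DUSP6 lay below it by each measure. DUSP4, a longer transcript, was at 44.95 TPM under GSK484, 50.3 TPM under CON and 49.7 TPM in NT. DUSP5 was at 14.5 TPM under GSK484, 13.8 TPM under CON and 14.3 TPM in NT.

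SPRY2 and SPRY4 encode Sprouty proteins, which restrain RAS-ERK signalling from receptor tyrosine kinases, and SPRED2 encodes a relative that keeps RAS from activating RAF together with neurofibromin. SPRY2 was at 18.3 CPM under GSK484, 19.7 CPM under CON and 19.4 CPM in NT, with GSK484 the lowest. Its log2 fold for GSK484 over CON was -0.11 (interval -0.21 to -0.01), barely beyond counting error, and it lay within it when libraries were scaled to total counts (-0.07) or the composition trend was removed (-0.05). SPRY4 was the lowest member by TPM, at 5.81 TPM under GSK484, 5.30 TPM under CON and 5.82 TPM in NT. In CPM it varied least, at 22.5 under GSK484, 22.8 under CON and 22.4 in NT, and each of its 3 differences was within counting error. Its fold for CON over NT after removal of the composition trend was 0.096, just beyond it (interval 0.00087 to 0.19). The ratio of SPRY2 to SPRY4 reads, 0.81 under GSK484, 0.87 under CON and 0.87 in NT, did not differ beyond counting error either (log2 change for GSK484 over CON -0.09, interval -0.23 to 0.05).

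SPRED2 had the second lowest fold for GSK484 over CON. It was at 51.6 CPM under GSK484, 57.9 CPM under CON and 55.1 CPM in NT, again with GSK484 lowest and CON highest. The log2 fold was -0.17 against CON (interval -0.23 to -0.11) and -0.09 against NT (interval -0.16 to -0.03), the second within counting error with the composition trend removed (-0.05). In TPM, GSK484 and CON were level, at 17.3 each, against 18.9 in NT. TPM moved the median fold of all genes to 0.10 for GSK484 over CON, and SPRED2, at 0.0017 by TPM, lay below it. The effective length estimated for SPRED2 was 3491 bases under GSK484, 3630 under CON and 3422 in NT, and TPM divides by this length. It is an average over 8 annotated transcripts, weighted by their estimated abundance.

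PHLDA1 encodes a pleckstrin homology-like domain protein whose RNA follows ERK activity in many tumour lines. It had 404.8 CPM under GSK484, 439 CPM under CON and 395 CPM in NT, and 60.0, 60.3 and 58.9 TPM in the same order. Its log2 fold was -0.12 for GSK484 over CON (interval -0.14 to -0.10) and 0.03 for GSK484 over NT (interval 0.01 to 0.06). For CON over NT it was 0.15 (interval 0.13 to 0.17). With the composition trend removed these folds became -0.21, 0.17 and 0.38 in the same order. By TPM the fold for CON over NT was 0.03. In that comparison the median of all genes was -0.08 by TPM and 0.03 by scaled CPM, and PHLDA1 lay above both. With the trend removed the fold was larger, so the measures still disagree on its size. PHLDA1 was the only member whose expected counts were not whole, as RSEM gives where reads are divided between genes.

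PHLDA1 overlaps PHLDA1-AS1, a non-coding gene on the opposite strand, and the strand setting of the counting is not given in the sources used here. PHLDA1-AS1 had 378 expected counts under GSK484, 62.2 under CON and 118 in NT, equal to 1.20%, 0.155% and 0.42% of the PHLDA1 count in the same libraries. Its log2 fold was 2.82 for GSK484 over CON (interval 2.45 to 3.25), but reads of the pair cannot be told apart with certainty. With both summed, the log2 fold was -0.10 for GSK484 over CON (interval -0.12 to -0.08) and 0.05 for GSK484 over NT, the same signs as for PHLDA1 alone. Among other overlapping genes, SPRY4-AS1 had 15 reads under GSK484, 38 under CON and 23 in NT, and ETV5-AS1 had at most 1. DHX8, which overlaps ETV4 on the opposite strand, was within counting error for GSK484 over CON (0.04, interval -0.03 to 0.10). DGKG, which overlaps ETV5 on the same strand, had 493 reads under GSK484, 487 under CON and 461 in NT, before scaling. Its log2 fold was 0.25 for GSK484 over CON (interval 0.06 to 0.43), or 0.20 with the composition trend removed. It was -0.03 for GSK484 over NT, within counting error, and -0.28 for CON over NT (interval -0.46 to -0.09).

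ETV4 and ETV5 encode PEA3 group ETS transcription factors, and ETV5 was the 1 member higher in GSK484 than in CON beyond counting error. ETV5 had 51.1 CPM under GSK484, 48.0 CPM under CON and 43.3 CPM in NT, with GSK484 the highest of the 3 libraries. Its log2 fold was 0.09 against CON (interval 0.03 to 0.15) and 0.24 against NT (interval 0.17 to 0.31), or 18.02% above NT. CON was above NT by 0.15 (interval 0.08 to 0.22). The fold against NT lay just past the 95th percentile of genes of at least 10 CPM, 0.23, and 12.5% of these genes had a larger absolute fold. It stayed positive under 9 of 9 alternatives, from 0.15 to 0.25, though some of these cannot move a gene's own fold. The lowest value came from TPM, in which ETV5 was at 23.5 under GSK484, 22.1 under CON and 21.2 in NT.

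ETV4 was at 34.1 CPM under GSK484, 34.9 CPM under CON and 32.1 CPM in NT. GSK484 over CON was within counting error (-0.03, interval -0.10 to 0.04), and GSK484 over NT was 0.09 (interval 0.01 to 0.17). With the composition trend removed the fold over NT was -0.01. ETV5 reads per ETV4 read numbered 1.495 under GSK484, 1.38 under CON and 1.35 in NT, a log2 change of 0.12 for GSK484 over CON (interval 0.02 to 0.22). Per DUSP4 read there were 0.249 ETV5 reads under GSK484, 0.193 under CON and 0.192 in NT, so that the ratio of these 2 genes was level between CON and NT (log2 change 0.01, interval -0.06 to 0.08) and 0.36 higher in GSK484 than in CON. After removal of the composition trend these changes were -0.093 (interval -0.17 to -0.020) and 0.44. These ratios were chosen after the values were seen.

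**Figure D2:**
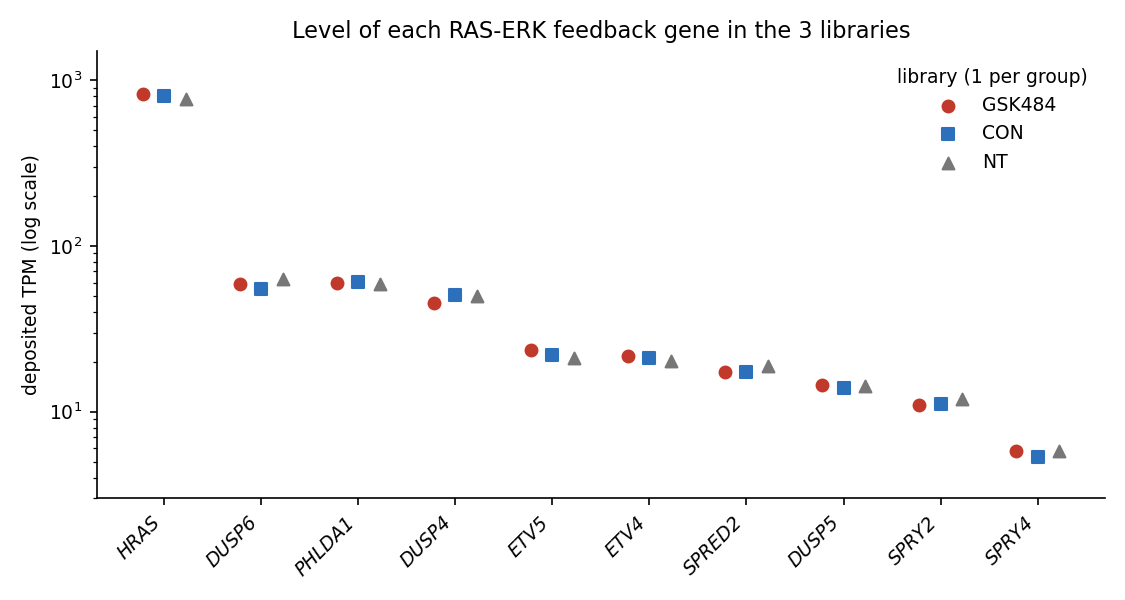
Deposited TPM (log axis) of the 10 members in the GSK484, CON and NT libraries, 1 point per library, ordered by NT. HRAS stands highest at 767 to 819 TPM and SPRY4 lowest at 5.30 to 5.82 TPM, and the points of a gene lie close together beside the gaps between most genes.

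The order of the members by TPM was almost the same in the 3 libraries. In 8 of 10 members the place was identical, from HRAS through DUSP4, ETV5, ETV4, SPRED2, DUSP5 and SPRY2 to SPRY4. DUSP6 and PHLDA1 exchanged places 2 and 3, PHLDA1 being higher in GSK484 and CON and DUSP6 in NT. With 1 library per group there is no spread between replicates to set neighbours against. Close neighbours were PHLDA1 and DUSP6, at 60.0 and 58.9 TPM in GSK484, and ETV5 and ETV4, at 23.5 and 21.6 TPM in GSK484 and 21.2 and 20.1 TPM in NT.

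GSK484 against CON sets the inhibitor beside its control compound at the same time. None of the 10 members reached a 2-fold difference, where 0.47% of 13199 genes of at least 1 CPM did (26 higher, 0.197%, and 36 lower, 0.273%). Beyond counting error, 1 member was higher (ETV5) and 5 were lower (HRAS, DUSP4, SPRY2, SPRED2 and PHLDA1), with 4 within it. At this depth 26.9% of all genes were higher and 27.4% lower by the same rule, so a count of 6 of 10 members beyond counting error is near the 54.3% of genes in general. The median log2 fold of the members was -0.08, beside -0.01 over all genes. After removal of the composition trend, 1 member was higher and 3 were lower, where 25.9% of genes were higher and 25.1% lower. The members' median absolute fold, 0.10, was close to the 0.09 of genes of at least 10 CPM.

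**Figure D3:**
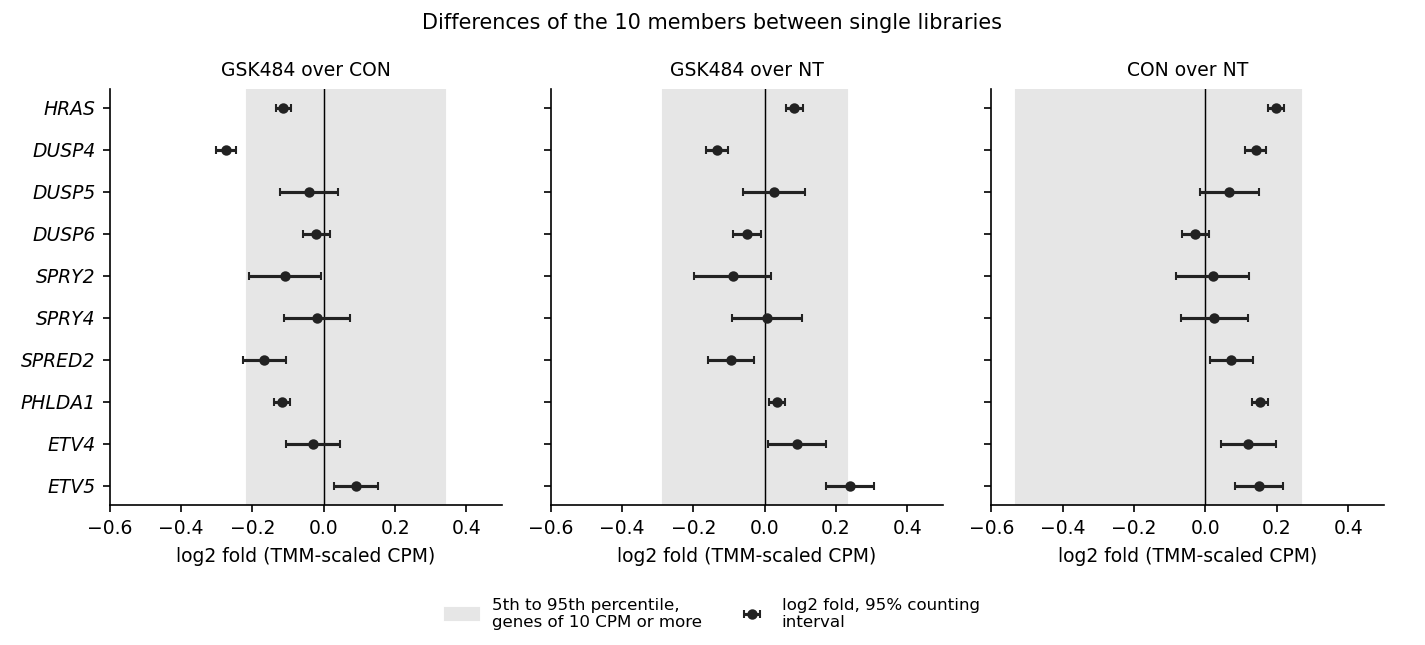
Log2 fold of each member in CPM scaled with TMM factors for GSK484 over CON, GSK484 over NT and CON over NT, with 95% counting intervals. Grey bands span the 5th to 95th percentile of 8663 genes of at least 10 CPM, and only DUSP4 (GSK484 over CON) and ETV5 (GSK484 over NT) lie outside them.

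GSK484 against NT sets the inhibitor beside untreated cells, and uses the same GSK484 library as the comparison with CON. Here 4 members were higher (HRAS, PHLDA1, ETV4 and ETV5) and 3 lower (DUSP4, DUSP6 and SPRED2) beyond counting error, where 27.3% of 13209 genes were higher and 29.5% lower. None passed 2-fold, which 0.545% of genes did (0.265% higher and 0.28% lower). The 7 of 10 members beyond counting error stand beside 56.8% of all genes. The median was 0.02, beside -0.00277 over all genes. With the composition trend removed, 2 members were higher (PHLDA1 and ETV5) and 2 lower (HRAS and DUSP4), near the 23.3% of genes higher and 22.7% lower by the same step.

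CON against NT compares the control compound with no treatment, with the time of NT not given. Beyond counting error 6 members were higher (HRAS, DUSP4, SPRED2, PHLDA1, ETV4 and ETV5) and none lower, where 35.5% of 13221 genes were higher and 29.4% lower. The median of the members was 0.10, beside 0.03 over all genes, and no member passed 2-fold, which 1.68% of genes did (0.333% higher and 1.35% lower). In either direction 64.9% of all genes were beyond counting error, against 6 of 10 members. With the composition trend removed 5 members were higher and 1, HRAS, was lower, where 26.4% of genes were higher and 25.9% lower. By TPM the median was -0.02, where that of all genes was -0.08.

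**Figure D4:**
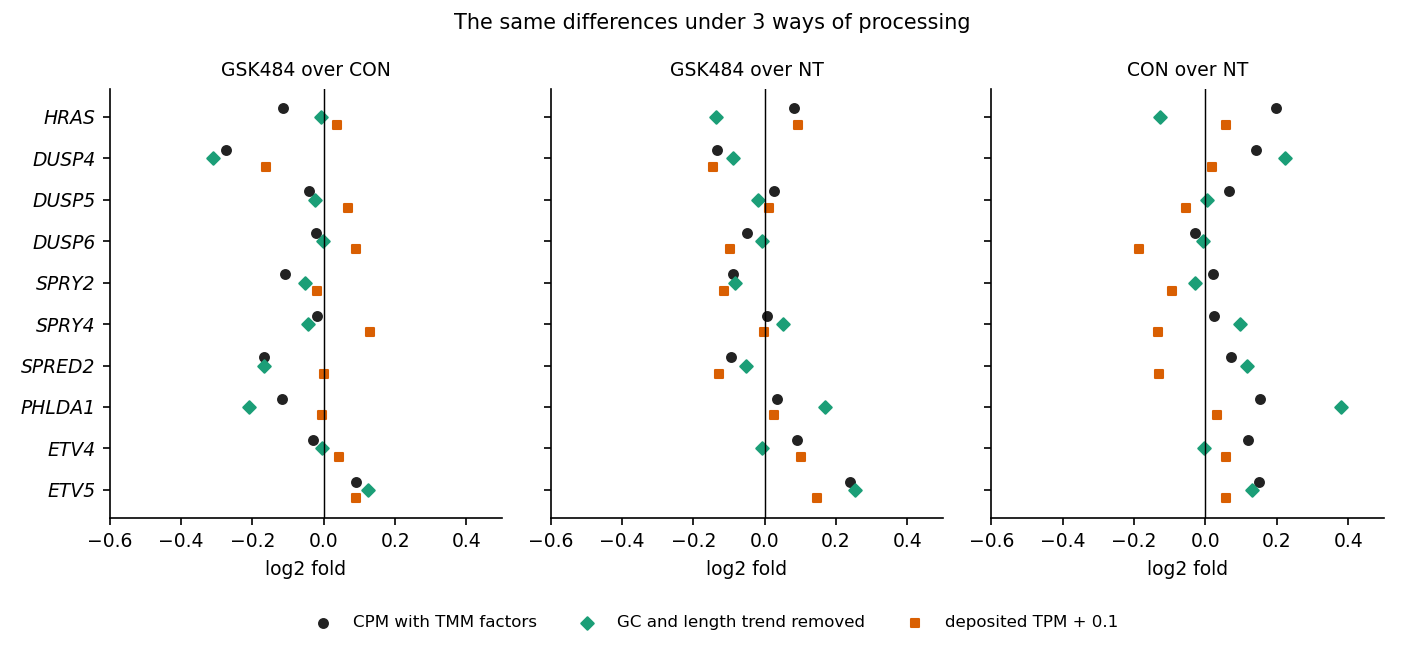
Log2 fold of each member in the 3 comparisons as CPM scaled with TMM factors (circles), with the trend on GC content and length removed (diamonds) and as deposited TPM plus 0.1 (squares). DUSP4 stays below 0 for GSK484 over CON and ETV5 above 0 for GSK484 over NT in all 3, while HRAS crosses 0 in each comparison.

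The rest of the cascade was described with 7 lists of 71 genes in all, of which DUSP14 was not matched and 67 were measured for GSK484 over CON. No listed gene passed 2-fold in any of the 3 comparisons. Of the 67 genes, 22 were higher and 20 lower beyond counting error for GSK484 over CON, with a median of 0.0073. For GSK484 over NT, 17 were higher and 30 lower of 67, and for CON over NT, 20 were higher and 25 lower of 66. Over all genes 26.9% were higher and 27.4% lower for GSK484 over CON. The shares were 27.3% and 29.5% for GSK484 over NT, and 35.5% and 29.4% for CON over NT. With the composition trend removed they were 25.9% and 25.1% for GSK484 over CON, 23.3% and 22.7% for GSK484 over NT, and 26.4% and 25.9% for CON over NT. The counts of each list below stand beside these shares.

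Adaptors and exchange factors, which couple receptors to RAS loading, numbered 9, of which 3 lay above and 1 below CON in the GSK484 library. PTPN11, the SHP2 phosphatase gene, had a log2 fold of 0.19 and the adaptor gene FRS2 of 0.34. SHC1, an adaptor gene at 176 TPM under GSK484, 188 TPM under CON and 192 TPM in NT, was at -0.14. With the composition trend removed FRS2 was at 0.07 and PTPN11 at 0.05, and the list median was -0.08, against 0.12 without this step. Against NT this list had 0 genes higher and 6 lower, with FRS2 at -0.28, PTPN11 at -0.21 and SHC1 at -0.14. With the trend removed it had 0 higher and 4 lower than NT. Of 8 genes for RAS GTPase activating proteins, which switch RAS off, 4 lay above and 1 below CON in the GSK484 library. With the trend removed 2 were higher and 2 lower. NF1, the neurofibromin gene, was at 0.32 against CON (0.16 with the trend removed) and RASA1 at 0.32 (0.25). RASAL1 was at -0.22. Against NT this list had 0 genes higher and 3 lower, with NF1 at -0.06, RASA1 at -0.28 and RASAL1 at -0.02. With the trend removed it had 1 higher and 3 lower than NT.

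Among 12 kinase and scaffold genes, 2 lay above and 5 below CON in the GSK484 library, with a median of -0.04. MAP2K1, which encodes MEK1, was at 64.0 CPM under GSK484, 77.8 CPM under CON and 75.2 CPM in NT. GSK484 was the lowest library for MAP2K1, by -0.28 against CON (interval -0.33 to -0.23) and -0.23 against NT, and with the trend removed by -0.23 and -0.24. MAP2K2, which encodes MEK2, was within counting error against CON (-0.01) and at 0.14 against NT, or 0.02 with the trend removed. MAPK3, which encodes ERK1, was at -0.12 against CON, but within counting error with the trend removed (-0.07, interval -0.16 to 0.02). By TPM it was at 0.01, below the median of all genes by that measure, 0.10. The RAF kinase genes ARAF, at 0.02, and BRAF, at -0.03, were within counting error. The scaffold genes SHOC2 (0.51) and IQGAP1 (0.32) were the higher ones, and both were lower in GSK484 than in NT, at -0.33 and -0.22. With the trend removed both were at 0.28 against CON, and at -0.14 and -0.13 against NT.

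Of 9 measured relatives of the feedback genes, 2 lay above and 4 below CON in the GSK484 library. DUSP1, an immediate early phosphatase gene, was at 15.4 CPM under GSK484, 21.5 CPM under CON and 22.2 CPM in NT, with a log2 fold of -0.48 against CON and -0.53 against NT. DUSP8, at -0.54 against CON, and DUSP10, at 0.57, act mainly on the stress kinases JNK and p38, and both had few reads. DUSP7, a cytoplasmic ERK phosphatase gene, was at 124 CPM under GSK484, 106 CPM under CON and 113 CPM in NT, opposite in direction to DUSP4. SPRY1, a further Sprouty gene, was at -0.24 against CON and -0.20 against NT. DUSP7 and SPRY1 were chosen after their values were seen.

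Of 8 other ETS factor and repressor genes, 6 lay above and 1 below CON in the GSK484 library, with a median of 0.19, or 0.08 with the composition trend removed. CIC, the repressor of DUSP6, SPRY4, ETV4 and ETV5, was at 122 CPM under GSK484, 107 CPM under CON and 104 CPM in NT. Its log2 fold was 0.19 against CON (interval 0.15 to 0.23) and 0.23 against NT, or 0.13 and 0.11 with the trend removed. ERF, an ETS repressor that ERK inactivates, was at 159 CPM under GSK484, 133 CPM under CON and 129 CPM in NT. Both repressor genes had their highest value in GSK484. The 4 members named beside CIC had folds against CON of -0.02 (DUSP6), -0.02 (SPRY4), -0.03 (ETV4) and 0.09 (ETV5). ETS1 was at 0.22 and ELK3 at 0.19 against CON, or 0.11 and 0.09 with the trend removed.

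Of 16 other genes induced by ERK signalling, 4 lay above and 6 below CON in the GSK484 library, with a median of -0.02. Against NT 11 were higher and 4 lower, where 27.3% of all genes were higher and 29.5% lower. For CON over NT 11 were higher and 2 lower, where 35.5% of all genes were higher and 29.4% lower. With the composition trend removed 9 were higher and 3 lower for GSK484 over NT, where 23.3% of all genes were higher and 22.7% lower. For CON over NT 9 were higher and 4 lower by this step, where 26.4% of all genes were higher and 25.9% lower. FOS, the immediate early transcription factor gene, stood apart, at 156 CPM under GSK484, 200.3 CPM under CON and 204 CPM in NT, a fold of -0.36 against CON (interval -0.40 to -0.33). EPHA4, an ephrin receptor gene, was at -0.20, and UPP1, a uridine phosphorylase gene, at 0.13 (0.24 with the trend removed). CCND1, the cyclin D1 gene, chosen after its value was seen, was at 0.09 against CON and 0.07 against NT.

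**Figure D5:**
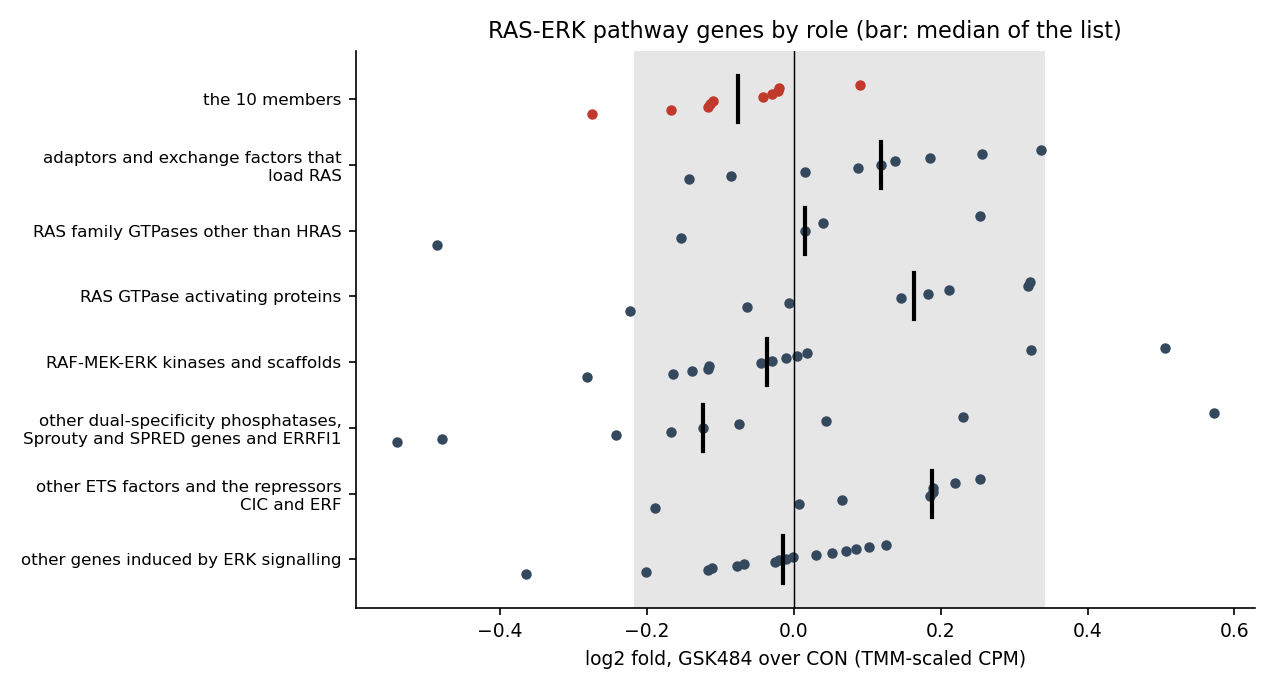
Log2 fold for GSK484 over CON of the 10 members and of the measured genes of 7 pathway lists, 1 point per gene, with the median of each list as a bar. The grey band spans the 5th to 95th percentile of genes of at least 10 CPM, and list medians range from -0.12 to 0.19.

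Many genes had folds like the median of the members over the 3 libraries. The median pair of folds was -0.08 for GSK484 over CON and 0.10 for CON over NT, and of 8513 other genes compared, 638 lay within a distance of 0.05 of it, as did 1 of the 10 members. The 5 nearest were BRF1, EGR1, TRAK1, TAF11 and GNB1, at distances of 0.00035 to 0.0039. EGR1, an immediate early gene that is also among the 16 ERK-induced genes, was at 233 CPM under GSK484, 246 CPM under CON and 230.2 CPM in NT.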

How the data were processed

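Total RNA libraries were made with a stranded kit and sequenced as paired 125 bp reads, per the labels' protocols. RSEM and the hg19 build are named in the submitters' processing notes. The sources used here do not give the RSEM version, aligner, annotation release or strand setting. The authors deposited 1 gene table per library with expected counts (estimated reads per gene, not normalized), TPM and FPKM values and transcript lengths, per the file headers. FPKM was not used. Effective lengths are the authors' deposited estimates and change with the isoform mixture.

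Expected counts were scaled to CPM with TMM factors (edgeR 4.0.16, R 4.3.3), 1.01 for GSK484, 0.98 for CON and 1.01 for NT. Log2 folds used a prior count of 0.5, and intervals were exact conditional binomial (Clopper-Pearson) intervals on expected counts rounded to whole numbers. Intervals of ratios between genes are Woolf intervals. The trend was also removed from these ratios, a step added after seeing the data. A gene was measured at 1 CPM or more in the higher library. It was past 2-fold where, in addition, the interval excluded no difference. The trend on GC content (longest transcript, GENCODE release 29) and on the log of effective length used natural splines (5 degrees of freedom each) over 8369 protein-coding genes that reached 10 CPM in every library. GC content was known for 97.2% of measured genes and for all 10 members. The interval code was tested on simulated data. Symbols came from a gene name table by gene ID (49995 of 56632 IDs matched), and no coordinates of the files were used. Overlaps between genes and their strands came from the gene spans of GENCODE release 29, not from the hg19 annotation behind the counts. Promoters are from RefSeq (GRCh38.p14).

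Alternatives were total-count scaling, median-of-ratios size factors (DESeq2 1.42.0), TMM without mitochondrial genes, no CPM minimum or 5, a prior count of 2, TPM with a pseudocount of 0.1, trend removal, and genes with counts whole within 0.005 in all libraries. The members and lists were chosen with earlier results of these data known. Named genes were the members, overlapping genes, fixed core kinase and RAS genes and CIC, up to 3 genes per list with the largest fold against CON beyond counting error, and the 5 genes nearest in pattern. A gene named outside this rule is marked as such in the text, apart from cell type markers. Some listed genes, 1 leukocyte marker among them, are not reported here, though counts and medians of the lists include them.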

Additional observations from a re-analysis of the deposited data

How the results depend on the processing

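No paired analysis was possible because each group has 1 library and the labels give no replicate numbers, and leaving out a library was not possible either. Of 270 member folds under an alternative, 247 had the sign of the reported value and 23 the other sign. In 16 of these 23 the reported value was within counting error, and the other 7 are given below. The changed CPM minimums and the restriction to whole counts leave a member's own fold as it is, so its sign could not turn under them. A prior count of 2 and TMM without mitochondrial genes moved no summary value enough to be listed here. For the values that follow the cause was not tested, except that a CPM minimum or whole counts change which genes enter. A sum of PHLDA1 and PHLDA1-AS1 counts was chosen after seeing the data.

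Scaled to total counts, 1 member was lower for CON over NT, and the ERK-induced genes had medians of 0.025 for GSK484 over CON and 0.059 for CON over NT. With median-of-ratios size factors 2 members were higher for GSK484 over NT and 1 lower for CON over NT. With no CPM minimum the genes past 2-fold numbered 539 higher and 550 lower for GSK484 over CON, 485 and 568 for GSK484 over NT, and 535 and 785 for CON over NT. With a minimum of 5 CPM they numbered 5 and 7, 5 and 8, and 6 and 118, and for CON over NT the medians were -0.21 for RAS GTPases and -0.38 for GTPase activating proteins.

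By deposited TPM the members' median was 0.039 for GSK484 over CON and -0.019 for CON over NT. The median of all genes moved as well, to 0.097 and -0.083. The members' median less that of all genes was -0.058 and 0.064, beside -0.071 and 0.069 as reported. For GSK484 over CON 9 members, HRAS and SPRED2 among them, lay below the median of all genes by TPM. Past 2-fold were 50 genes higher for GSK484 over CON and 56 lower for GSK484 over NT. List medians for GSK484 over CON were 0.27 (adaptors), 0.10 (RAS GTPases), 0.30 (GTPase activating proteins), 0.088 (kinases), -0.0074 (relatives of the feedback genes), 0.26 (ETS factors) and 0.098 (ERK-induced genes). The kinases were at -0.066 for GSK484 over NT. For CON over NT the medians were -0.24 (RAS GTPases), -0.30 (GTPase activating proteins), -0.14 (kinases), -0.14 (relatives), -0.26 (ETS factors) and -0.047 (ERK-induced genes). Among members beyond counting error as reported, the sign turned for HRAS (0.036) and SPRED2 (0.0017) in GSK484 over CON, and for SPRED2 (-0.13) in CON over NT.

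With the GC and length trend removed, 3 members were lower for GSK484 over CON, 2 higher for GSK484 over NT and 1 lower for CON over NT. Past 2-fold were 23 genes higher for GSK484 over NT, and 21 higher and 50 lower for CON over NT. Medians for GSK484 over CON were -0.082 (adaptors), -0.14 (RAS GTPases), -0.021 (GTPase activating proteins) and 0.078 (ETS factors). For GSK484 over NT they were -0.048 (adaptors), -0.039 (relatives) and 0.068 (ETS factors). For CON over NT they were -0.062 (adaptors), 0.20 (RAS GTPases), -0.042 (GTPase activating proteins), -0.016 (ETS factors) and 0.064 (ERK-induced genes). Among members beyond counting error as reported, it turned for HRAS (-0.14) and ETV4 (-0.0085) in GSK484 over NT, and for HRAS (-0.13) and ETV4 (-0.0034) in CON over NT. For the ratio of HRAS to NRAS, in a step added after seeing the data, the log2 change turned to -0.12 for GSK484 over NT and -0.079 for CON over NT.

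With only genes of whole counts, past 2-fold were 6 higher and 7 lower for GSK484 over CON, 7 and 10 for GSK484 over NT, and 9 higher for CON over NT. Medians were -0.15 (RAS GTPases) and 0.070 (GTPase activating proteins) for GSK484 over CON, and 0.13 (RAS GTPases) and -0.11 (ETS factors) for GSK484 over NT. For CON over NT they were 0.29 (RAS GTPases), -0.0053 (GTPase activating proteins) and -0.068 (kinases).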
